A study of Gallus gallus with 32 samples.

Results

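The genes described here are the axon guidance ligands and receptors measured in the pituitary and hypothalamus of broiler chickens. They were taken by symbol, as every gene of the count table whose name begins with SEMA, PLXN, EPHA, EPHB, EFNA, EFNB, ROBO, UNC5 or NTN or with SLIT and a digit, or is NRP1, NRP2 or DCC, and whose count averaged at least 10 over all libraries. The rule gave 51 of 24881 genes in the table, of which 10132 carried a symbol. No gene with a matching symbol was lost to the count limit. The member with the lowest mean count was EPHA8, at 14 reads per library, followed by SEMA6C at 30.1 and SEMA3E at 44.3. The set held 16 semaphorins, 7 plexins, 2 neuropilins, 4 ephrins, 11 Eph receptors, 4 Slit and Robo genes and 7 netrin, netrin-G and UNC5 genes. DCC and ROBO1 were not analysed here.

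RNA was sequenced from pituitaries and whole hypothalami of 16 Ross 308 cockerels, a fast-growing meat line, giving 32 libraries. There were 4 birds in each of 4 groups: low growth rate (LGR, the lighter birds) and high growth rate (HGR, the heavier birds) at 6 weeks (day 42 in the labels), and LGR and HGR at 3 weeks (day 22). The same birds gave both tissues. All birds were of 1 commercial line, none has a treatment in the labels, and feed was withdrawn before slaughter. The lighter and heavier birds were kept in separate pens, so that growth group and pen cannot be told apart. The libraries were not strand-specific, so reads from a gene and from an antisense partner cannot be told apart.

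Axon guidance molecules steer growing axons and migrating cells by attraction and repulsion, and many are still made in the adult nervous system, where they act at synapses and on vessels. Secreted class 3 semaphorins bind neuropilins, which pair with plexins as the signalling chain, while the membrane-bound semaphorins bind plexins directly. Ephrins are cell-bound ligands of the Eph receptor tyrosine kinases. Slits act through Robo receptors, and netrins act through DCC and the UNC5 receptors. In the embryo such cues guide hypothalamic axons and the migration of gonadotropin-releasing hormone neurons. These roles are known mainly from mouse and from chick embryos.

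Library totals were 6231478 to 18256297 counts in pituitary (median 15794495) and 13845756 to 17536175 in hypothalamus. The tissue labels matched the markers. Levels are given as CPM, read counts scaled to the size of the library. The summed CPM of 9 pituitary hormone and endocrine genes were 61390 to 173800 in pituitary, against 38.9 to 972 in hypothalamus. The sums of 10 neuronal genes were 815 to 1160 in pituitary and 4281 to 7852 in hypothalamus, and those of 6 astrocyte genes were 32.1 to 158.5 in pituitary and 2092 to 3578 in hypothalamus. These are bulk tissues, in which fewer cells of a type and less RNA per cell cannot be told apart.

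One pituitary library stood apart, replicate 4 of the LGR birds at 3 weeks. It was the shallowest, at 6231478 counts, and it bore directly on these genes. In it 33 of the 51 members (64.7%) had a lower CPM than in any of the other 15 pituitary libraries, against 36.1% of all genes tested, while 5 members (9.8%) had a higher one, against 31.3% of all genes. The other pituitary libraries had 0 to 9 members outside the range of the rest. That range included the library that stood apart, which keeps these counts low. All 7 plexins and both neuropilins were below every other pituitary library. PLXNB1, a receptor for class 4 semaphorins, had 2.81 CPM in that library, against a median of 47.9 CPM in the other 15. UNC5D, a netrin receptor, had 1.17 CPM there, against a median of 17.6 CPM. The 5 members above the others were SEMA3B, SEMA3F, SEMA4B, SEMA6C and EPHA2, and SEMA3F, a secreted ligand of NRP2, had 56.7 CPM against a median of 14.8 CPM. Its endocrine sum of 173800 CPM was the highest of the 16 pituitary libraries, and its endothelial (214.7 CPM) and astrocyte (32.1 CPM) sums were the lowest. The part these differences played in the members' values was not tested. Results that rest on this library are given with and without it.

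**Figure D1:**
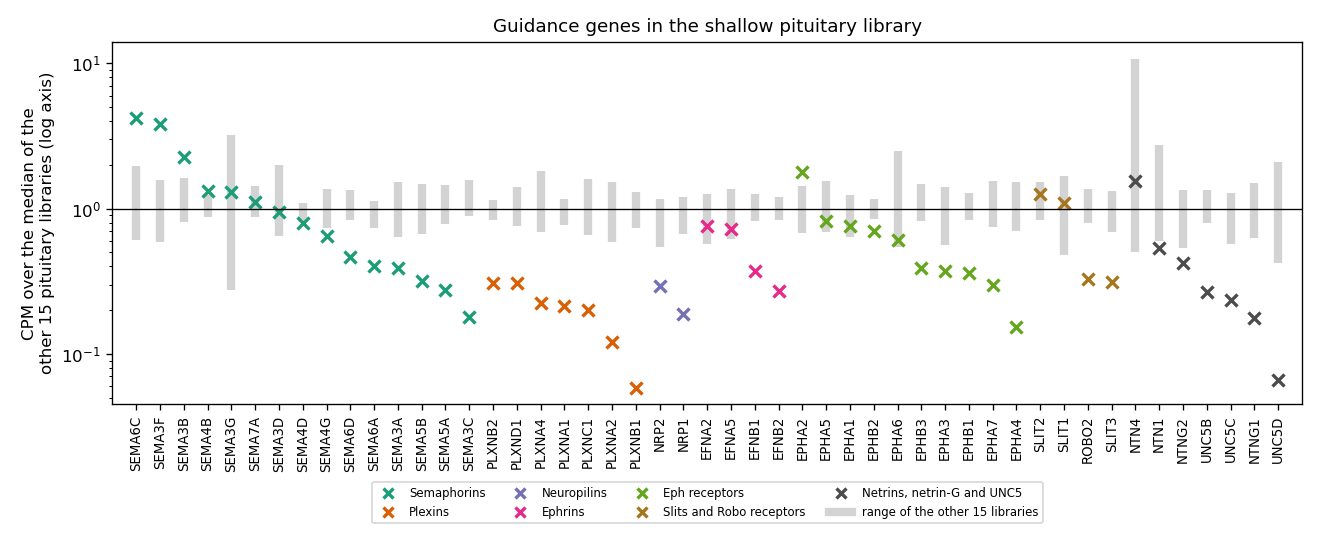
CPM of each member in the pituitary library of the LGR bird 4 at 3 weeks, as a ratio to the median of the other 15 pituitary libraries (log axis, one cross per member, coloured by family). Grey bars give the range of the other 15 libraries, and EPHA8 and SEMA3E, at 0 in this library, are left out. The crosses of the plexins and neuropilins lie below their bars, while SEMA6C (4.18 times the median) and SEMA3F (3.84 times) lie above theirs.

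The comparison of pituitary with hypothalamus showed where these genes were expressed. Most guidance genes were lower in pituitary. With edgeR's quasi-likelihood test over all 32 libraries and Benjamini-Hochberg adjustment over all genes, a gene was called where its adjusted p was at most 0.05 and its fold at least 1.5. Of the 51 members, 45 were called (88.2%; background, 53.5% of the 16169 genes tested). Of these, 12 were higher (23.5%; background 25.7%) and 33 lower (64.7%; background 27.8%). The median log2 fold change of the members was -0.93, against 0.05 over all genes. The share of higher calls was thus close to the background, and the share of lower calls was above it. EPHA8 and SEMA3E, both among the lower calls, had 0 to 10 and 0 to 8 reads in each pituitary library. They met the count limit only through hypothalamus, so the rule favoured this direction for them. All 51 members had an adjusted p of at most 0.05, as did 80.4% of all genes. Each of the 45 called members had the same direction of group means in all 4 combinations of age and growth. So had 5 of the 6 members not called. The test averages these same 4 differences, so their shared direction is not separate support for the calls. Without the library that stood apart, 46 members were called, 12 of them higher and 34 lower. That fit called 8722 of 16324 genes, 4161 of them higher and 4561 lower.

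**Figure D2:**
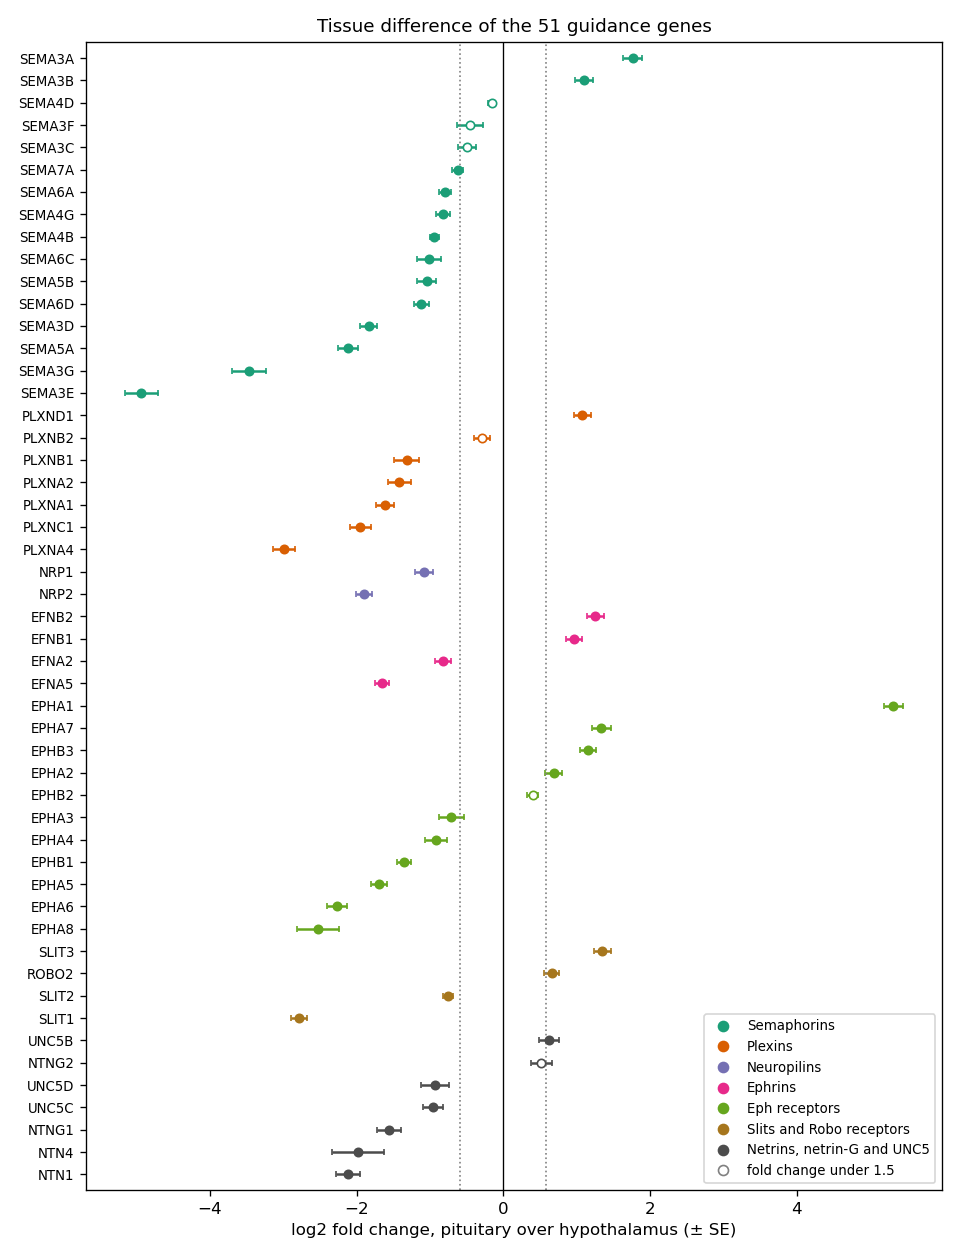
Log2 fold change of pituitary over hypothalamus for each of the 51 members, by family, with standard errors from the fit over 32 libraries. Filled points were called, open points had a fold under 1.5, and dotted lines mark a fold of 1.5 in each direction. EPHA1 lies far to the higher side (5.32) and SEMA3E to the lower (-4.94), and 33 filled points lie on the lower side.

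Among the semaphorins, the largest family, 11 of 16 were lower in pituitary, 2 were higher and 3 were not called. The secreted class 3 ligands ranged most widely. SEMA3E, a ligand of PLXND1, had 0 to 8 reads in each pituitary library, against 52 to 135 reads in each hypothalamus library. It is a member only through hypothalamus, so a lower level in pituitary was favoured by the rule. Its level was 0 to 0.522 CPM in pituitary (median 0.160) and 3.8 to 8.93 CPM in hypothalamus (median 4.90), a log2 fold change of -4.94 (SE 0.22; adjusted p = 5.95e-18). SEMA3G, which signals through neuropilins and in mouse is known from endothelium, had 1.3 to 15.0 CPM in pituitary (median 5.30), against 40.2 to 79.1 CPM in hypothalamus (median 57.6), a fold change of -3.47 on the log2 scale (SE 0.23; adjusted p = 6.5e-14). The highest pituitary value of SEMA3G was below every hypothalamus value. SEMA5A, a membrane semaphorin with thrombospondin repeats, had 8.67 to 45.4 CPM in pituitary (median 30.3) and 84.7 to 229 CPM in hypothalamus (median 136). SEMA3D (-1.83), SEMA6D (-1.12), SEMA5B (-1.04), SEMA6C (-1.01), SEMA4B (-0.94), SEMA4G (-0.82), SEMA6A (-0.79) and SEMA7A (-0.62, all log2 fold changes) were also lower.

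In contrast, SEMA3A, the best known repellent of the family, was higher in pituitary, at 11.5 to 45.1 CPM (median 29.1), against 4.90 to 16.4 CPM in hypothalamus (median 8.42). Its log2 fold change was 1.76 (SE 0.14; adjusted p = 1.3e-12), and the groups overlapped only through the library that stood apart. SEMA3B was the other semaphorin that was higher (log2 fold change 1.11), with no overlap between tissues. The 3 without a call were SEMA3C (-0.49), SEMA3F (-0.45) and SEMA4D (-0.16). SEMA3F was called lower once the library that stood apart was left out (-0.63).

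The receptors for semaphorins were mostly lower in pituitary as well. Of the 7 plexins, 5 were lower, 1 was higher and 1 was not called, and both neuropilins were lower. PLXNA4, a signalling chain for class 3 and class 6 semaphorins, had 0.938 to 7.52 CPM in pituitary (median 4.13), against 19.9 to 54.1 CPM in hypothalamus (median 40.5). This was a 7.97-fold lower level, with a log2 fold change of -2.99 (SE 0.15; adjusted p = 8.38e-17). PLXNC1, the receptor of SEMA7A, had 4.45 to 35.3 CPM in pituitary (median 21.9) and 62.1 to 117.5 CPM in hypothalamus (median 81.9). PLXNA1 had 12.2 to 66.6 CPM in pituitary (median 56.9) and 120 to 204 CPM in hypothalamus (median 163). No pituitary library reached the lowest hypothalamus library for any of these plexins. The co-receptor NRP2 had 6.80 to 26.9 CPM in pituitary (median 22.8), against 55.6 to 108 CPM in hypothalamus (median 75.9), a log2 fold change of -1.89 (SE 0.11; adjusted p = 1.29e-15). NRP1, which also binds vascular endothelial growth factor, had 5.86 to 37.2 CPM in pituitary (median 30.7) and 41.4 to 74.3 CPM in hypothalamus (median 59.8).

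PLXND1, a receptor known in mouse from vessels and the partner of SEMA3E, was the plexin that was higher in pituitary. It had 74.8 to 341 CPM in pituitary (median 241), against 86.0 to 140 CPM in hypothalamus (median 114), a log2 fold change of 1.08. Its lowest pituitary value came from the library that stood apart, and without it the groups did not overlap. Its ligand SEMA3E was lower in the same tissue. SEMA3E is a member only through hypothalamus, so the rule favoured that direction. PLXNB2 missed the fold threshold (log2 fold change -0.29, adjusted p = 0.0136), with 30.7 to 114 CPM in pituitary and 74.7 to 154 CPM in hypothalamus. The summed CPM of 6 endothelial marker genes overlapped between the tissues, at 215 to 407 in pituitary and 278 to 413 in hypothalamus, but its genes went both ways. KDR, the vascular endothelial growth factor receptor, averaged 95.4 ± 19.8 CPM in pituitary and 33.4 ± 11 CPM in hypothalamus (SD, n = 16 each), TIE1 45.2 ± 7.26 CPM in pituitary and 16.7 ± 2.02 CPM in hypothalamus, while VWF averaged 21.0 ± 9.16 CPM in pituitary and 143.6 ± 27.1 CPM in hypothalamus. Of the 6 genes, 3 were called higher and 2 lower in pituitary, and their part in the PLXND1 difference was not tested.

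The Eph receptors differed most among themselves. Of 11, 4 were higher in pituitary, 6 were lower and 1 was not called. EPHA1 was higher by far, at 18.2 to 35.5 CPM in pituitary (median 28.4), against 0.290 to 1.39 CPM in hypothalamus (median 0.656). Its log2 fold change of 5.32 (SE 0.13; adjusted p = 7.96e-24) was the largest of the 51 members, and the groups were far from overlapping. EPHA7 (1.34), EPHB3 (1.16) and EPHA2 (0.69, log2 fold changes) were higher too. EPHA5, a receptor known in mouse from forebrain neurons, had 26.0 to 58.9 CPM in pituitary (median 37.3) and 91.5 to 163 CPM in hypothalamus (median 128), a log2 fold change of -1.69 (SE 0.11; adjusted p = 1.9e-14). EPHA6 had 1.04 to 4.78 CPM in pituitary (median 1.78) and 5.94 to 13.5 CPM in hypothalamus (median 9.89), with no overlap. EPHA8 (-2.53), EPHB1 (-1.36), EPHA4 (-0.92) and EPHA3 (-0.71) were lower. EPHB2, at 18.3 to 30.7 CPM in pituitary and 14.4 to 27.5 CPM in hypothalamus, missed the fold threshold (log2 fold change 0.40, adjusted p = 1.99e-05).

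The ephrins were split by class. The transmembrane ligands EFNB2 (1.25) and EFNB1 (0.96) were higher in pituitary, and the lipid-anchored ligands EFNA5 (-1.66) and EFNA2 (-0.82, log2 fold changes) were lower. EFNA5 had 1.00 to 2.21 CPM in pituitary (median 1.58), against 4.33 to 6.34 CPM in hypothalamus (median 5.26), and no libraries overlapped.

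The Slit ligands also went in different directions. SLIT1, known in mouse from the nervous system, had 12.6 to 44.1 CPM in pituitary (median 27.3), against 133 to 246 CPM in hypothalamus (median 193). It was 6.92-fold lower in pituitary, with a log2 fold change of -2.79 (SE 0.11; adjusted p = 2.43e-19). SLIT2 had 63.0 to 115.5 CPM in pituitary (median 78.9) and 116 to 161 CPM in hypothalamus (median 140), a smaller difference in which the highest pituitary library came up to the lowest hypothalamus library (log2 fold change -0.75, SE 0.07; adjusted p = 7.21e-11). SLIT3 was higher in pituitary, with 27.9 to 116 CPM (median 88.0), against 28.5 to 43.7 CPM in hypothalamus (median 33.0), and its lowest pituitary value was that of the library that stood apart. ROBO2, a Slit receptor, was higher (log2 fold change 0.66).

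In the netrin group 5 of 7 genes were lower in pituitary, 1 was higher and 1 was not called. NTN1, the secreted netrin that attracts axons through DCC, had 2.34 to 12.1 CPM in pituitary (median 4.23), against 17.3 to 32.3 CPM in hypothalamus (median 21.9), a log2 fold change of -2.12 (SE 0.16; adjusted p = 6.08e-13). NTNG1, a lipid-anchored netrin that in mouse acts in synaptic adhesion, had 2.81 to 23.7 CPM in pituitary (median 15.3) and 29.9 to 84.0 CPM in hypothalamus (median 44.1). Neither gene overlapped between tissues. NTN4 (-1.99), a netrin of basement membranes, UNC5C (-0.95) and UNC5D (-0.93) were lower, and UNC5B (0.62), a receptor known from vessels in mouse, was higher. NTNG2 was not called (0.52, log2 fold changes).

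By library, 24 of the 51 members (47.1%; background 31.6%) did not overlap between tissues, 2 of them higher (background 13.1%) and 22 lower in pituitary (background 18.5%). The 22 include SEMA3E, a member only through hypothalamus. Without the library that stood apart there were 31 (60.8%; background 38.8%), 9 higher (background 17.7%) and 22 lower (background 21.1%). The lower calls in pituitary went along with the neuronal and astrocyte sums given above, for which all 10 neuronal and all 6 astrocyte genes were called lower, and with those of 4 oligodendrocyte genes, all called lower, at 43.8 to 181.8 CPM in pituitary and 2907 to 9409 CPM in hypothalamus. The part that cell makeup played in the members' difference was not tested.

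**Figure D3:**
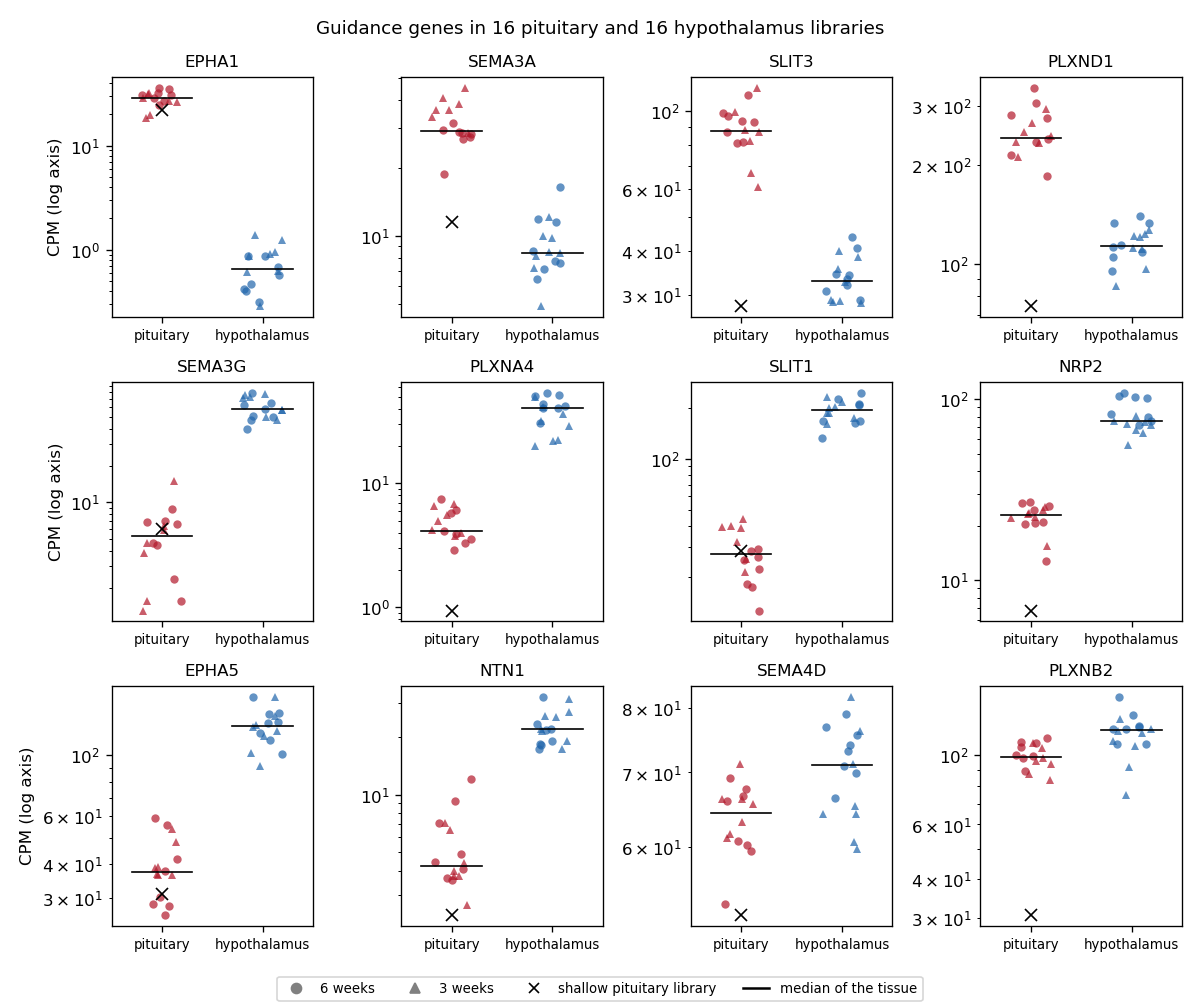
CPM (log axis) of 12 members in the 16 pituitary and 16 hypothalamus libraries, with circles for 6 weeks, triangles for 3 weeks and lines at the medians. The cross is the pituitary library that stood apart. EPHA1, SEMA3A, SLIT3 and PLXND1 had the higher median in pituitary, SEMA3G, PLXNA4, SLIT1, NRP2, EPHA5 and NTN1 the lower one, and SEMA4D and PLXNB2 overlapped.

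Members also varied in how far birds differed within a tissue. The coefficient of variation over the libraries of a tissue had a median of 26.6% in pituitary (19.8% without the library that stood apart) and 19.9% in hypothalamus. SEMA4D, a class 4 semaphorin, was the steadiest member in each tissue, at 8.43% in pituitary (52.0 to 71.2 CPM) and 9.42% in hypothalamus (59.7 to 81.9 CPM). NTN4 was the least steady in pituitary, at 120.3%. It had 0.456 to 9.79 CPM there (median 0.984), with the highest values in HGR replicate 3 at 6 weeks (9.79 CPM) and HGR replicate 3 at 3 weeks (7.0 CPM). Those 2 libraries also had the highest summed CPM of 5 fibroblast and mural marker genes, 2359 and 2697, against at most 1572 in the other pituitary libraries. Within that sum COL1A2 (1304 and 1764 CPM) and LUM (74.9 and 60.7 CPM) were highest in these 2 libraries. COL3A1 (464.5 and 436.4 CPM, with up to 500.7 CPM elsewhere in pituitary), DCN and PDGFRB were not highest in both. The part of these genes in the NTN4 values was not tested.

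Several members lie close together on the chromosomes, and neighbours did not always share a direction between tissues. The coordinates are those of the deposited result tables, which name no genome build. On chromosome 1, SEMA3D (8310340 to 8452139, log2 fold change -1.83), SEMA3A (8824964 to 8995709, 1.76) and SEMA3E (9507267 to 9637821, -4.94) follow each other with gaps of 372.8 and 511.6 kb. On chromosome 12, SEMA3G (3114601 to 3121990, -3.47), SEMA3F (3167398 to 3189955, -0.45) and SEMA3B (3221466 to 3225875, 1.11) are 45.4 and 31.5 kb apart. On chromosome 21, EPHB2 (0.40) and EPHA8 (-2.53) are 64.8 kb apart, and EPHB2 was not called. EPHA8 and SEMA3E met the count limit only through hypothalamus, so the rule favoured their lower values. Thus each of these clusters of class 3 semaphorins held both a higher and a lower call. In some other pairs both neighbours were lower in pituitary, as for PLXNC1 and NTN4 (468.9 kb apart) and SLIT1 and SEMA4G (679.2 kb). The same held for PLXNA1 and PLXNB1 (1336.8 kb) and EPHA3 and EPHA6 (1583.6 kb). EPHA2, in contrast, was higher (0.69), and lies 1631.2 kb from EPHB2 and 1804.5 kb from EPHA8.

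Other genes of the pathway were taken from 2 lists put together by function. Of 23 measured genes for other ligands and co-receptors, 1 was higher in pituitary and 14 were lower (background 25.7% and 27.8% of all genes), with a median log2 fold change of -1.93. FLRT2, an adhesion molecule that binds UNC5 receptors, was the higher one (0.81). OMG (-7.14), a myelin glycoprotein that inhibits axon growth, and SLITRK1 (-7.02), a synaptic adhesion protein, were the lowest. Of 35 measured effectors inside the cell, 4 were higher and 17 were lower (same background; median -0.57). TIAM1 (1.13), an activator of Rac, and FARP2 (0.96) were higher, while GAP43 (-5.59), a growth cone protein, and RND1 (-4.38), a small GTPase that binds plexins, were lower. No gene of either list was called in any comparison of ages or growth groups.

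The comparison of 6 with 3 weeks within each tissue showed little change. In hypothalamus 0 of 51 members were called by edgeR's quasi-likelihood test (background 0.623%). On adjusted p alone 2 members passed (3.92%; background 2.31%), both higher at 6 weeks and both chosen for naming after their values were seen. NRP2 had a log2 fold change of 0.35 (SE 0.06; adjusted p = 0.0111) and EPHA4, a receptor for ephrins of both classes, one of 0.42 (SE 0.10; adjusted p = 0.0417). In EPHA4 the 6-week libraries had 40.3 to 52.0 CPM (LGR) and 46.8 to 60.6 CPM (HGR), against 28.7 to 34 CPM (LGR) and 33.8 to 57.3 CPM (HGR) at 3 weeks. The LGR birds of the 2 ages did not overlap in EPHA4, whereas the HGR birds did. At an unadjusted p under 0.05 there were 11 members (21.6%; background 24.2%), all with higher values at 6 weeks (background in that direction 12.8%). They were NRP2, EPHA4, EPHA6, EPHA7, SEMA3C, SEMA5A, PLXNA1, PLXNA2, PLXNA4, PLXNB1 and UNC5D, with log2 fold changes of 0.24 to 0.48. The median over the 51 members was 0.11, against -0.01 over all genes. The astrocyte sum was 3148 to 3578 CPM at 6 weeks, against 2092 to 3263 CPM at 3 weeks. The blood marker HBAD, a globin, was at 6.04 to 33.3 CPM at 6 weeks and 43.6 to 174.3 CPM at 3 weeks, with no overlap, and the fibroblast and mural sum was 248.5 to 862.8 CPM at 6 weeks and 432.9 to 1687 CPM at 3 weeks. The part of these in the members' values was not tested.

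In pituitary 0 of 49 members tested for age were called (background 0.0262%), EPHA8 and SEMA3E being too low to test. At an unadjusted p under 0.05 there were 4 (8.16%; background 10.6%), and without the library that stood apart 7 (3 higher and 4 lower; 13.2% of all genes), with PLXNB1, ROBO2 and SEMA3A in addition. UNC5D had a log2 fold change of 0.90 (SE 0.34; adjusted p = 0.375), and SLIT1 (-0.59), EPHA6 (-0.73) and SEMA6C (-0.84) had adjusted p values of 0.274 to 0.326. EPHA6 had 1.04 to 2.11 CPM in the 8 pituitaries at 6 weeks, against 1.17 to 4.78 CPM in the 8 at 3 weeks. Without the library that stood apart still none was called, and EPHA6 had the lowest adjusted p, 0.0794 (log2 fold change -0.84).

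EPHA6 was the member whose age difference varied most between tissues. Its log2 fold change of 6 over 3 weeks was -0.73 in pituitary and 0.40 in hypothalamus. The difference of these differences was -1.15 on the log2 scale (SE 0.26), with an adjusted p of 0.161 by edgeR's quasi-likelihood test, so it was not called (0 of 51 members; background 0.00618%). It was called without the library that stood apart (-1.24, adjusted p = 0.0358), a fit that called 16 of 16324 genes. No fit of this term paired the tissues of a bird. At an unadjusted p under 0.05 the tissues differed in age effect for 4 members (7.84%; background 6.07%), EPHA1, EPHA6, SEMA3E and SLIT1. SEMA3E had only 0 to 8 reads in each pituitary library and EPHA1 only 5 to 21 in each hypothalamus library. Without the library that stood apart there were 9 (2 higher and 7 lower; 9.79% of all genes), with EPHA4, NRP2, PLXNA4, SEMA3A and SEMA5A in addition.

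The comparison of LGR with HGR cockerels addressed whether these genes followed growth rate. The clearest differences were in the hypothalamus at 6 weeks, and they were small. No member of 50 tested there reached both thresholds (background 0.134%), EPHA1 being too low to test at 5 to 14 reads in each library. On adjusted p alone 3 passed (6.0%; background 0.569%), all higher in LGR birds. NRP2 had 108.4, 101.3, 103.2 and 103.5 CPM in the LGR birds, against 71.7, 79.7, 82.9 and 75.7 CPM in the HGR birds, a log2 fold change of 0.43 (SE 0.05; adjusted p = 0.0261 by edgeR's quasi-likelihood test). Every LGR bird was above every HGR bird, by a gap larger than the spread within either group. UNC5D, a repellent netrin receptor, had 41.4, 40.8, 45.9 and 42.6 CPM in LGR birds, against 33.2, 33.4, 29.7 and 33.2 CPM in HGR birds (log2 fold change 0.40, SE 0.07; adjusted p = 0.0372). SLIT1 had 206.5, 209.6, 226.1 and 245.7 CPM in LGR birds, against 167.9, 167.6, 161.9 and 133.0 CPM in HGR birds (log2 fold change 0.50, SE 0.09; adjusted p = 0.0405). Again no LGR bird overlapped with an HGR bird in either gene. SLIT1, like NTNG1 below, was chosen for naming after its values were seen.

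NTNG1 had the larger difference but missed the threshold. It had 29.9, 30.0, 35.6 and 34.9 CPM in LGR birds, against 45.4, 51.5, 65.8 and 84.0 CPM in HGR birds, a log2 fold change of -0.92 (SE 0.17; adjusted p = 0.056). The HGR birds were all above the LGR birds and were more spread out. Leaving out 1 library at a time gave adjusted p values of 0.0485 to 0.143 for NTNG1, the lowest without HGR replicate 1. It was called by DESeq2 (adjusted p = 2.79e-05) and, by a narrow margin, without the filter on low counts (0.0477). DESeq2 called 165 of 13804 genes in this comparison.

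These adjusted p values rested on all 8 birds. Leaving out 1 library at a time gave 0.0311 to 0.0809 for NRP2, 0.049 to 0.0942 for UNC5D and 0.0569 to 0.116 for SLIT1, with log2 fold changes of 0.40 to 0.46, 0.36 to 0.42 and 0.42 to 0.53. The mean column of the deposited hypothalamus table matched a set of libraries that lacks LGR replicates 1 and 3 and HGR replicate 1 at this age, a larger exclusion than the methods describe. Without these libraries adjusted p was 0.246 for NRP2, 0.28 for UNC5D and 0.264 for SLIT1, with log2 fold changes of 0.37, 0.38 and 0.57.

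**Figure D4:**
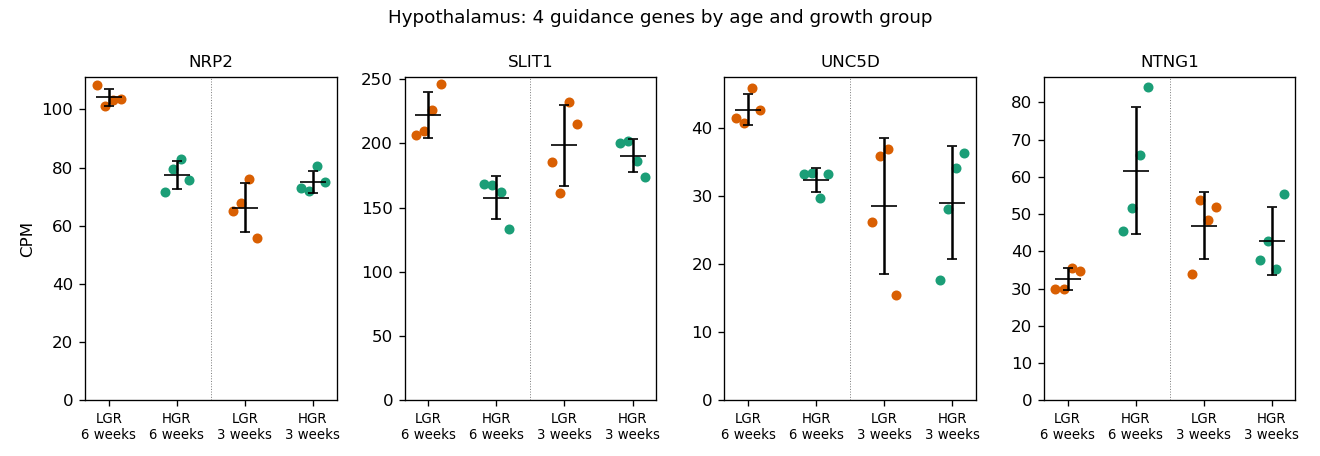
CPM of NRP2, SLIT1, UNC5D and NTNG1 in the hypothalamus of each bird, for LGR and HGR at 6 weeks and LGR and HGR at 3 weeks, with the mean and SD of 4 birds. At 6 weeks NRP2, SLIT1 and UNC5D lie higher in all 4 LGR birds and NTNG1 lies lower, and at 3 weeks the groups overlap.

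In all, 19 of the 50 members, those named above included, had an unadjusted p under 0.05 in this comparison (38.0%; background 18.6%), 13 with higher values in LGR birds (26.0%; background 9.46%) and 6 with lower values (12%; background 9.11%). Of the semaphorin receptors, 5 of 7 plexins (PLXNA1, PLXNA2, PLXNA4, PLXNC1 and PLXND1, but not PLXNB1 or PLXNB2) and both neuropilins were on the higher side at this unadjusted level. So were the 3 Slit ligands (SLIT1, SLIT2 and SLIT3). NRP1 had 74.3, 65.7, 68.7 and 60.5 CPM in LGR birds, against 52.8, 51.5, 53.0 and 59.0 CPM in HGR birds (log2 fold change 0.32, adjusted p = 0.0798). PLXNC1 had 117.5, 109.1, 92.3 and 89.2 CPM in LGR birds, against 73.2, 76.6, 69.7 and 82.6 CPM in HGR birds (0.44, adjusted p = 0.0714). Of the 16 semaphorins themselves, 1 (SEMA4B) was on the higher side and 3 (SEMA3A, SEMA3F and SEMA7A) were on the lower. SEMA7A, the ligand of PLXNC1, had 66.7, 80.3, 69.0 and 69.1 CPM in LGR birds and 104.0, 81.3, 84.2 and 96.2 CPM in HGR birds. EPHA3 and EPHA5 were the remaining genes on the lower side beside NTNG1. The groups did not overlap for 11 members (22.0%; background 11.2%), 8 of them higher in LGR birds (background 5.11%) and 3 lower (background 6.12%).

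Markers of brain regions and cell types differed between the same birds. The summed CPM of 6 genes listed for thalamus, which adjoins the hypothalamus, was 405 to 490 in LGR and 621 to 780 in HGR birds at 6 weeks. This list was also detected in pituitary (624 to 1399 CPM), so that it is not specific to thalamus. Most of its sum was CALB2, at 341.2 to 437.5 CPM in LGR and 497.7 to 577.3 CPM in HGR birds. Of the 6 listed genes 4 had an unadjusted p under 0.05, all lower in LGR birds. The remaining listed genes, RORA and PRKCD, were not lower and overlapped between the groups. RORA leaned higher in LGR birds, at 8.747 to 10.23 CPM, against 7.291 to 9.926 CPM in HGR birds. PRKCD had 20.14 to 29.3 CPM in LGR and 20.03 to 22.62 CPM in HGR birds. GBX2, a transcription factor of the thalamus, had 3.14, 2.71, 3.29 and 5.63 CPM in LGR birds, against 11.65, 25.5, 26.7 and 33.0 CPM in HGR birds (log2 fold change -2.71, adjusted p = 0.0261), and TCF7L2 fell by 2.36 on the log2 scale (adjusted p = 0.0338). The neuronal sum was 5268 to 6149 CPM in LGR and 6740 to 7852 CPM in HGR birds, with 5 of its 10 genes lower and 1 higher in LGR birds at an unadjusted p under 0.05. GAD2, a marker of inhibitory neurons, ran against the sum, at 321.7 to 346.4 CPM in LGR and 264.2 to 303.4 CPM in HGR birds. The sum of 2 telencephalon genes was 9.44 to 15.9 CPM in LGR and 5.55 to 9.32 CPM in HGR birds, and the microglial sum 239 to 519 CPM in LGR and 215 to 241 CPM in HGR birds. The part of these in the members' differences was not tested.

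**Figure D5:**
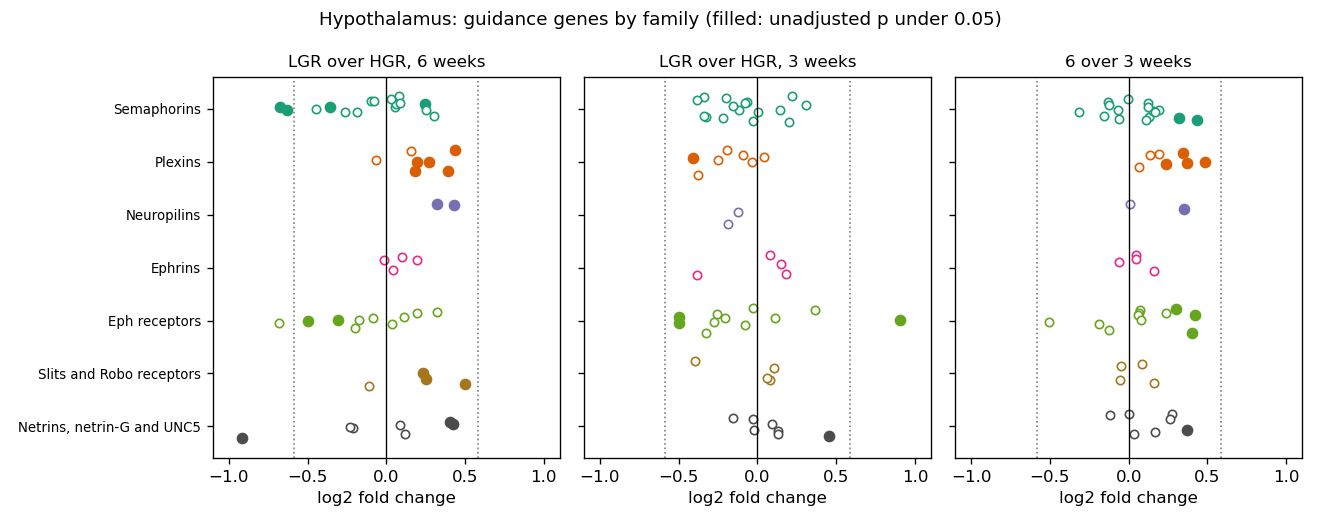
Log2 fold change of each member tested in hypothalamus by family, for LGR over HGR at 6 weeks, LGR over HGR at 3 weeks, and 6 over 3 weeks. EPHA1 was too low to test for growth at 6 weeks. Filled points had an unadjusted p under 0.05 and dotted lines mark a fold of 1.5. At 6 weeks 13 filled points lie on the higher side of the LGR over HGR panel and 6 on the lower, against 2 and 3 at 3 weeks, and all 11 filled points of the age panel lie on the higher side.

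In hypothalamus at 3 weeks 0 of 51 members were called (background 0.0%), and 5 had an unadjusted p under 0.05 (9.8%; background 5.81%). NTN1 had 25.4, 25.7, 31.8 and 27.1 CPM in LGR birds, against 17.3, 22.1, 21.6 and 19.1 CPM in HGR birds (log2 fold change 0.45, SE 0.12; adjusted p = 0.773). EPHA4 had 30.3, 31.4, 34 and 28.7 CPM in LGR birds, against 33.8, 43.1, 40.8 and 57.3 CPM in HGR birds (-0.50, SE 0.15; adjusted p = 0.774), with the groups just overlapping. EPHA1 (0.91), PLXNA2 (-0.41) and EPHA6 (-0.50) were the other 3. EPHA1 had 0.950, 1.26, 1.39 and 0.909 CPM in LGR birds and 0.874, 0.627, 0.610 and 0.290 CPM in HGR birds. These rest on few reads, 13, 21, 21 and 13 in LGR birds and 14, 10, 11 and 5 in HGR birds, which overlap before scaling. Beside EPHA1, a gene high in pituitary, the pituitary endocrine sum in these hypothalami was 359 to 972 CPM in LGR and 74.3 to 398 CPM in HGR birds, and its part was not tested.

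The growth difference in hypothalamus was compared between ages by an interaction term. None of the 51 members was called (background 0.00649%). At an unadjusted p under 0.05 there were 8 (15.7%; background 5.53%), 6 with a higher LGR over HGR ratio at 6 than at 3 weeks (NRP1, NRP2, PLXNA1, PLXNA2, PLXNA4 and SLIT1; background 2.85%) and 2 with a lower one (NTN1 and NTNG1; background 2.67%). NRP2 had the lowest p, with a difference of 0.61 (SE 0.12; adjusted p = 0.221), and was called by DESeq2 (0.61, adjusted p = 0.00126; 21 of 17878 genes called). At 3 weeks its hypothalamus levels were 65.0, 67.8, 76.0 and 55.6 CPM in LGR birds and 72.8, 72.0, 80.5 and 75.0 CPM in HGR birds, which overlapped.

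In pituitary no member was called for growth rate. At 6 weeks 0 of 49 were called (background 0.0%), 3 had an unadjusted p under 0.05 (6.12%; background 6.77%), and none had groups that did not overlap (background 3.83%). ROBO2 had 30.7, 25.3, 33.1 and 34.9 CPM in LGR birds, against 22.6, 27.3, 25.6 and 25.3 CPM in HGR birds (log2 fold change 0.31, SE 0.11; adjusted p = 0.666). PLXNA4 had 7.52, 5.79, 6.13 and 3.29 CPM in LGR birds, against 3.89, 2.87, 4.10 and 3.57 CPM in HGR birds (0.67, SE 0.25; adjusted p = 0.666). Both overlapped between groups, and EFNB1 (-0.21) was the other of the 3.

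At 3 weeks 0 of 49 members were called in pituitary (background 0.0%), and 0 had an unadjusted p under 0.05 (background 2.62%). The members with the lowest p, SEMA3B and SEMA6C, were 2 of those raised in the library that stood apart, which is an LGR library of this age. SEMA3B had 20.7, 26.8, 21.0 and 47.1 CPM in LGR birds, against 20.8, 16.8, 21.8 and 24.9 CPM in HGR birds (log2 fold change 0.45, SE 0.28; adjusted p = 0.963). SEMA6C had 1.07, 2.08, 1.94 and 4.45 CPM in LGR birds, against 1.79, 0.965, 1.76 and 0.722 CPM in HGR birds (0.78, SE 0.49; adjusted p = 0.963). In each gene the last LGR value is that of the library that stood apart, and without it the log2 fold changes were 0.11 for SEMA3B and 0.37 for SEMA6C. Without it 10 of 49 members had an unadjusted p under 0.05, 9 higher and 1 lower in LGR birds, against 5.76% of all genes, and the lowest adjusted p was 0.8. The groups then did not overlap for 5 members (10.2%; background 6.48%), all higher in LGR birds (background 3.01%). With that library they did not overlap for 0 members (background 2.47%). The interaction of growth group and age in pituitary also gave 0 calls (background 0.0%), with SEMA3B as the 1 member at an unadjusted p under 0.05 (2.04%; background 4.48%). This member rested on the library that stood apart. Without it 2 other members, EPHA6 and SEMA5A, were under 0.05 (6.08% of all genes), SEMA3B was not, and the lowest adjusted p was 0.811.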

How the data were processed

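Poly(A)+ RNA of 32 libraries was sequenced single-end with a kit that does not mark strand. The authors trimmed the reads, aligned them and counted them per gene with RSEM. The processing notes also name CASAVA 1.8.2, Bowtie2 and DESeq2. The deposited table holds whole-number counts per gene. The authors' deposited result tables were used for symbols, coordinates and their mean normalized signal, which in hypothalamus matched 12 libraries (median deviation 0.00254 on the log2 scale) more closely than all 16 (0.0246). Their fold changes and p-values were not used. Groups came from the labels, in which the birds of a group are separate animals. The sample titles carry other numbers than the day labels used here. The methods give a later slaughter day for the older birds than the labels do. No pair of replicates agreed within sampling noise (lowest chi-square 8.14 per gene).

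Counts were scaled by TMM and tested with edgeR 4.0.16 (R 4.3.3), keeping genes by a minimum count of 10 and a total of 15, with the quasi-likelihood test and Benjamini-Hochberg adjustment over all genes. Calls needed a fold of 1.5 or more together with an adjusted p no higher than 0.05. CPM are on 1 TMM scale over the 32 libraries. Tissues were compared over 8 group means, ages over the 16 libraries of a tissue and growth groups over 8 libraries. The scripts were tested on simulated data.

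Members to be named were the called ones with the largest fold per family whose tissues did not overlap, the 2 with the lowest p in each growth comparison without a call, and 3 without a call. Some members were given with ranges or bird values outside this rule. Between tissues these included SEMA3A, PLXND1 and SLIT3, whose tissues overlapped. For growth in hypothalamus they included NRP1, PLXNC1 and SEMA7A. The members and lists were chosen with earlier results of these data known. Bird numbers in the labels pair the tissues: the deviations of the 16 pairs correlated at 0.109 to 0.48. Alternatives were DESeq2 1.42.0, limma 3.58.1 voom with quality weights, RLE scaling, no filter, adjusted p alone, replicate blocks, wider fits, that set of 12 hypothalamus libraries, and leaving out each replicate. Leaving out the shallow pituitary library was chosen after seeing the data.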

Additional observations from a re-analysis of the deposited data

Results flagged for a closer look

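In 1 of 28 groups of 4 libraries examined for the named members, a library stood far from the other 3. UNC5D in the hypothalamus of HGR replicate 3 at 6 weeks had 29.7 CPM, below the other HGR birds of that age (33.2 to 33.4 CPM). Its gap to the nearest bird was 0.961 of the range of the group, past Dixon's 95% limit for 4 values, and chance alone gives about 1 such library in 20 groups. Without this library the log2 fold change of LGR over HGR for UNC5D was 0.36, against 0.40 with all 8 libraries, and its adjusted p was 0.0912 by edgeR's quasi-likelihood test.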

How the results depend on the processing

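The count of members called between tissues was 44 to 47 with each bird left out (8652 to 8752 over all genes). It was 45 with DESeq2 (9532 of 19655 genes), RLE scaling (8633 of 16169 genes) and no filter (9963 of 21821 genes). The replicate block by bird also gave 45 (8692 of 16169 genes) and changed no member's call. The count was 46 with voom (8628 of 16169 genes) and 51 on adjusted p alone (12992 of 16169 genes). EPHA3 (-0.58 without the 4 hypothalamus libraries that the deposited means appear to lack) and SEMA7A (-0.58 without HGR replicate 4 at 3 weeks) fell under the fold threshold. SEMA3F passed it with voom (-0.64) and without the shallow library (-0.63). For age in hypothalamus the count of 0 became 2 on adjusted p alone, and 0 to 1 with each replicate left out (PLXNA4, 0.59, adjusted p = 0.0249, without HGR replicate 4 at 3 weeks). The fit without that replicate called 354 of 15550 genes, against 96 of 15414 with all libraries. For age in pituitary the member count became 2 in 1 fit over all 32 libraries (EPHA6 and SLIT1) and 1 with voom (EPHA6). It stayed 0 with each replicate left out. Over all genes 153 of 16169 were called in that 1 fit and 107 of 15280 with voom, against 4 of 15280 in the main test. For growth in hypothalamus at 6 weeks the member count became 3 on adjusted p alone, 1 (NTNG1) with DESeq2 and with no filter, and 0 to 1 with each replicate left out (NTNG1, -1.04, adjusted p = 0.0485, without HGR replicate 1). Over all genes 165 of 13804 were called with DESeq2, 23 of 20624 with no filter and 15 of 15066 without HGR replicate 1. The main test called 20 of 14944. In 1 fit over the 16 hypothalamus libraries 0 of 15414 genes were called for growth at 6 weeks. By edgeR's quasi-likelihood test 1684 genes had an unadjusted p under 0.05 in that fit, against 2775 in the main test. The other growth comparisons stayed at 0 with each replicate left out. The tissue by age term was called for 1 member (EPHA6) with DESeq2, with voom and without the shallow library. Over all genes 37 of 17120, 27 of 16169 and 16 of 16324 were called there, against 1 of 16169 in the main test. The growth by age term in hypothalamus was called for 1 member (NRP2, 0.61, adjusted p = 0.00126) with DESeq2. That fit called 21 of 17878 genes, against 1 of 15414 in the main test. The causes were not tested. Birds of different groups share only a replicate number, with median correlations of 0.012 between growth groups and 0.034 between ages. A block on that number called 0 members in the age and growth comparisons. Over all genes it called 74 of 15414 for age in hypothalamus and 1 of 15280 for age in pituitary. For growth in hypothalamus at 6 weeks it called 3 of 14944 genes, and in the other growth comparisons 0. Adjusted p values for NRP2 with that block were 0.105. Depth limits EPHA8 and SEMA3E, which were not tested within pituitary, and EPHA1, which was not tested for growth in hypothalamus at 6 weeks. No result changed direction under the alternatives run.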
